A study of Mus musculus with 12 samples.

Results

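The genes described here are the 8 desaturases of mouse ear skin that carry the symbols Scd1, Scd2, Scd3, Scd4, Fads1, Fads2, Fads3 and Fads6, found by their Ensembl identifiers among the 55416 gene identifiers of each table. Bulk mRNA came from the ears of C57BL/6 mice, 8 to 12 weeks of age, on day 6. The 12 libraries form 4 groups of 3. IMQ_GW3965 mice had imiquimod on the ears and 20 mg/kg injections of GW3965, which activates LXR, the nuclear receptors for oxysterols. IMQ_Troglitazone mice had imiquimod and troglitazone, an agonist of the nuclear receptor PPARγ, at 150 mg/kg. IMQ_Veh mice had imiquimod and the vehicle DMSO. UTX_Veh mice had the vehicle, with no imiquimod named for them; what UTX abbreviates is not explained. Imiquimod, a Toll-like receptor agonist that provokes psoriasis-like inflammation in mouse skin, came as 20.8 mg of a 5% cream each day, and the injections into the peritoneum began on day 3. Sex, pooling and the source of each replicate are not stated in the labels, and a p-value here reflects library-to-library spread, perhaps only technical.

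A desaturase uses electrons passed along by cytochrome b5 to turn a single bond of an acyl chain into a double bond. The Scd enzymes (stearoyl-CoA desaturases) do this to saturated acyl chains made by fatty acid synthase and the elongases, and their monounsaturated products go into triglycerides, wax esters and sterol esters, the main lipids of sebum. Fads1 and Fads2 add double bonds on the way to long polyunsaturated fatty acids, from which eicosanoids are made. Transcription of several of these genes is driven by SREBP-1c, a product of Srebf1, and Srebf1 is itself a target of LXR.

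The Scd genes lie together on chromosome 19 of GRCm38 within 205 kb, with Scd3 at 44203269 to 44244016, Scd2 at 44293674 to 44306864 and Scd4 at 44333092 to 44346743 on the plus strand and Scd1 at 44394455 to 44407879 on the minus strand. Fads3 (10041569 to 10060110, plus strand), Fads2 (10062765 to 10101746, minus strand) and Fads1 (10182888 to 10196877, plus strand) form another cluster of the same chromosome, 155 kb long. Fads6 is at 115279622 to 115297663 on the minus strand of chromosome 11. The Scd copies are alike enough that some reads fit several of them. The longest coding stretch that Scd1 and Scd3 share letter for letter in GENCODE M21 runs for 185 bases over 2 exons. Reads that lie wholly within it cannot be assigned between Scd1 and Scd3 by sequence. It is shown with the matching place in Scd2 and Scd4, where capitals mark bases unlike Scd1.
Scd1, chr19:44400363-44401865, minus strand: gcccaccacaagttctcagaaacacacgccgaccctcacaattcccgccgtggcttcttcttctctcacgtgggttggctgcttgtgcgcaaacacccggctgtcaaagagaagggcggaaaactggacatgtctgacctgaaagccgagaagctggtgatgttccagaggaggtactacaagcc
Scd3, chr19:44235804-44238387, plus strand: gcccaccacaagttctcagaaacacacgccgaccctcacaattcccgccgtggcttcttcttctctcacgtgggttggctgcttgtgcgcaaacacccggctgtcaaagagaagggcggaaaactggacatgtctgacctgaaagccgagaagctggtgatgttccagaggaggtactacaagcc
Scd2, chr19:44299642-44301223, plus strand: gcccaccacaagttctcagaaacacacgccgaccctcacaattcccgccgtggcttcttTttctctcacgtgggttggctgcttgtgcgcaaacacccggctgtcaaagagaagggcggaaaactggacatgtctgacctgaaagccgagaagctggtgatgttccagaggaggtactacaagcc
Scd4, chr19:44338943-44341232, plus strand: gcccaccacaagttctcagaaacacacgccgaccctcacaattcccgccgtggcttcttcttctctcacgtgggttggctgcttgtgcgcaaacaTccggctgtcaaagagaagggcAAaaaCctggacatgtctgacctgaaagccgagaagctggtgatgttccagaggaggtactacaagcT

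In this stretch Scd2 differed from Scd1 at 1 base and Scd4 at 5 bases. Over whole transcripts, 6.26% of the 50-base windows of Scd3 also occurred in another Scd gene, against 4.56% for Scd1, 3.75% for Scd2 and 3.01% for Scd4. RSEM, the authors' counting program, divides such reads among the copies, and it gave Scd2 and Scd3 counts that were not whole in all 12 libraries, Scd1 in 11 and Scd4 in 3. The values of each Scd gene are therefore uncertain to the extent of that division, and the sum over the 4 genes is given beside them. Fads2 and Fads3 shared 5 such windows, Fads1 and Fads6 shared none, and no Fads count was split.

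Total expected counts per library lay between 18242074 and 25641602, and all 8 genes passed the filter on low counts that left 17130 genes to test. CPM below are counts scaled to library size with TMM factors, and a gene counts as called where edgeR's quasi-likelihood test, with Benjamini-Hochberg adjustment over all genes tested, gave an adjusted p under 0.05. Markers of skin keratinocytes summed to at least 22643 CPM in every library, as the labelled tissue implies. The single feature ENSMUSG00000119584 took 11.624% of the counts of IMQ_GW3965 replicate 3, against at most 0.138% in the other libraries. The library IMQ_Veh replicate 3 had the highest sums of skeletal muscle, adipocyte and cartilage markers in its group, at 5873.9 CPM for muscle against 1531 and 1518.8 CPM.

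Per transcript length, Scd1 was by far the most abundant of the 8 genes, at a mean of 1163.7 TPM in IMQ_GW3965, 870.33 in IMQ_Troglitazone, 470.62 in IMQ_Veh and 2079.3 in UTX_Veh libraries. Scd1 is the main isoform of mouse sebaceous gland and fat, and mice without it have withered sebaceous glands. Scd2, a form prominent in brain and in newborn skin, came next with means of 205.85, 169.97, 135.19 and 110.66 TPM in the same order of groups. Neither overlapped with its neighbour in that order in any group. In IMQ_Troglitazone, IMQ_Veh and UTX_Veh libraries Fads1 came after Scd2 and overlapped with Fads3, Fads2 overlapped with Scd3 and Scd3 with Fads6, and Scd4, a form known from heart, was the lowest. In IMQ_GW3965 libraries Scd3 came after Scd2 instead, at a mean of 42.74 TPM, with no overlap with Fads1 at 13.183 TPM.

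**Figure D1:**
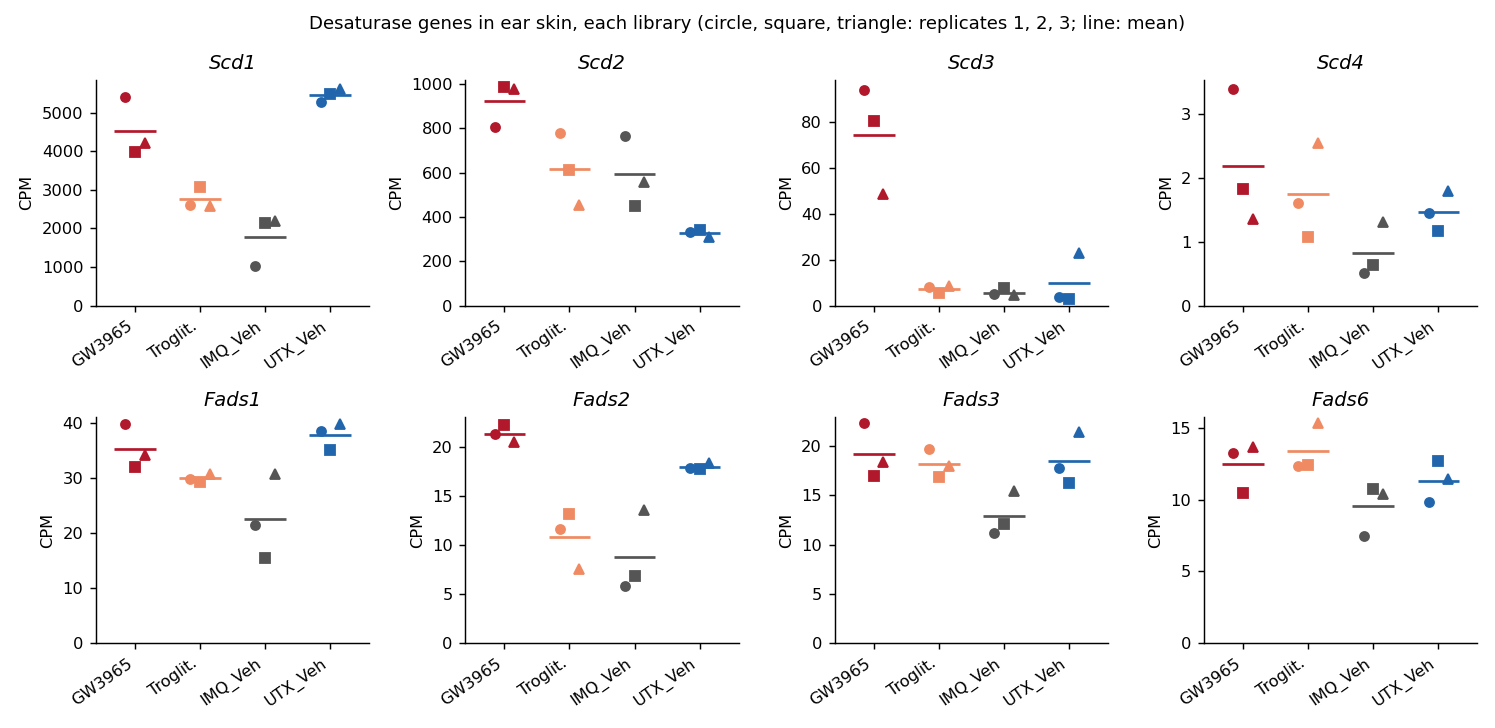
CPM of each desaturase gene in each library (vertical axis from 0, a scale per gene), with the groups IMQ_GW3965, IMQ_Troglitazone, IMQ_Veh and UTX_Veh along the horizontal axis, a symbol per replicate and a line at the group mean. The 3 IMQ_GW3965 libraries sit between 48.592 and 93.931 CPM for Scd3, above the other 9 libraries, and Scd1 is lowest in IMQ_Veh.

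Scd3, Scd1 and Fads2 rose with GW3965 in imiquimod-treated skin. Scd3, a form of the sebaceous and Harderian glands that prefers palmitoyl-CoA, had 93.931, 80.454 and 48.592 CPM in the IMQ_GW3965 libraries, against 5.0321, 7.52 and 4.4604 CPM in the IMQ_Veh libraries. The lowest IMQ_GW3965 library was thus well above the highest IMQ_Veh library, and the spread within IMQ_GW3965 was wide. The change was 3.70 ± 0.66 on the log2 scale (SE, n = 3 each), a 13.0-fold difference with an edgeR adjusted p of 0.015.

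Scd1 had 5404.9, 3985.4 and 4212.1 CPM in IMQ_GW3965 libraries and 1016.1, 2140.4 and 2182.7 CPM in IMQ_Veh libraries. The groups did not overlap, and the IMQ_Veh replicate 1 library was the lowest of the 12. The log2 change was 1.35 ± 0.24 (SE, edgeR adjusted p = 0.0158). Fads2, the enzyme of the rate-limiting desaturation in polyunsaturated fatty acid synthesis, had 21.336, 22.244 and 20.545 CPM in IMQ_GW3965 libraries and 5.8621, 6.8363 and 13.539 CPM in IMQ_Veh libraries. All 3 treated libraries were close together and above all 3 IMQ_Veh libraries, of which replicate 3 was the highest. Its log2 change was 1.29 ± 0.27 (SE, edgeR adjusted p = 0.0235).

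In all, 3 of the 8 genes were called higher and none lower, while 6.59% of all genes tested were called 3.71% higher and 2.88% lower. The groups did not overlap for 7 of the 8 genes, all higher with GW3965, against 24.8% of all genes tested. The median log2 change of the 8 genes was 0.97, and that of all genes tested was -0.01. The 5 other genes missed the threshold. Fads3, which has been tied to a desaturated sphingoid base, changed by 0.58 ± 0.16 on the log2 scale with an edgeR adjusted p of 0.0501. Fads1, the partner of Fads2 in polyunsaturated fatty acid synthesis, had 39.869, 31.963 and 34.197 CPM in IMQ_GW3965 libraries and 21.477, 15.402 and 30.803 CPM in IMQ_Veh libraries. These ranges did not overlap, yet the highest IMQ_Veh library, replicate 3, came close, and the log2 difference of 0.65 had an edgeR adjusted p of 0.062. Scd2 differed by 0.64 (adjusted p = 0.0784), Scd4 by 1.43 (0.0765) and Fads6 by 0.38 (0.19) in the same edgeR fit. The 95% interval of the Scd2 difference ran from 0.17 to 1.12, and that of Fads6 from -0.02 to 0.79, though the unadjusted edgeR p of Fads6 was 0.0486. At an unadjusted p under 0.05 the count was 8 of 8, all higher, against 25.9% of all genes, 13.2% higher.

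Leaving out single libraries kept every one of these directions for the 3 called genes but not every call. Scd1 passed in 5 of 6 such fits and missed without IMQ_GW3965 replicate 1, with a log2 change of 1.21 and an edgeR adjusted p of 0.0731. Scd3 passed in 4 of 6 and missed without IMQ_Veh replicate 1 (adjusted p = 0.061) or without IMQ_GW3965 replicate 1 (0.0645), at log2 changes of 3.61 and 3.50 from edgeR. Fads2 passed only without IMQ_Veh replicate 3, where its log2 change was 1.75. In the other 5 edgeR fits it lay between 1.07 and 1.33, with adjusted p-values from 0.0522 to 0.0901. Calls over all genes were fewer in those 5 fits too. Their share was 0.599% without IMQ_GW3965 replicate 1, 2.14% without replicate 2 and 2.35% without replicate 3. It was 0.879% without IMQ_Veh replicate 1 and 4.18% without replicate 2, against 6.59% with all libraries. Without IMQ_Veh replicate 3, 6 of the 8 genes were called higher, Scd4, Fads1 and Fads3 joining the 3, and the share of all genes called was 20.8%, 12.3% higher. Without replicate 3 of both IMQ_Veh and IMQ_GW3965, the same 6 of the 8 genes were called, against 17.4% of all genes, 11.3% higher. With the feature ENSMUSG00000119584 and Lars2 left out of the tables, Fads3 passed as well (edgeR adjusted p = 0.0484). The lane field of the file names, L001 or L009, is not explained by the labels. Within L001 and L009 libraries the log2 differences were 1.16 and 1.42 for Scd1, 3.15 and 4.06 for Scd3, and 1.60 and 1.31 for Fads2.

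**Figure D2:**
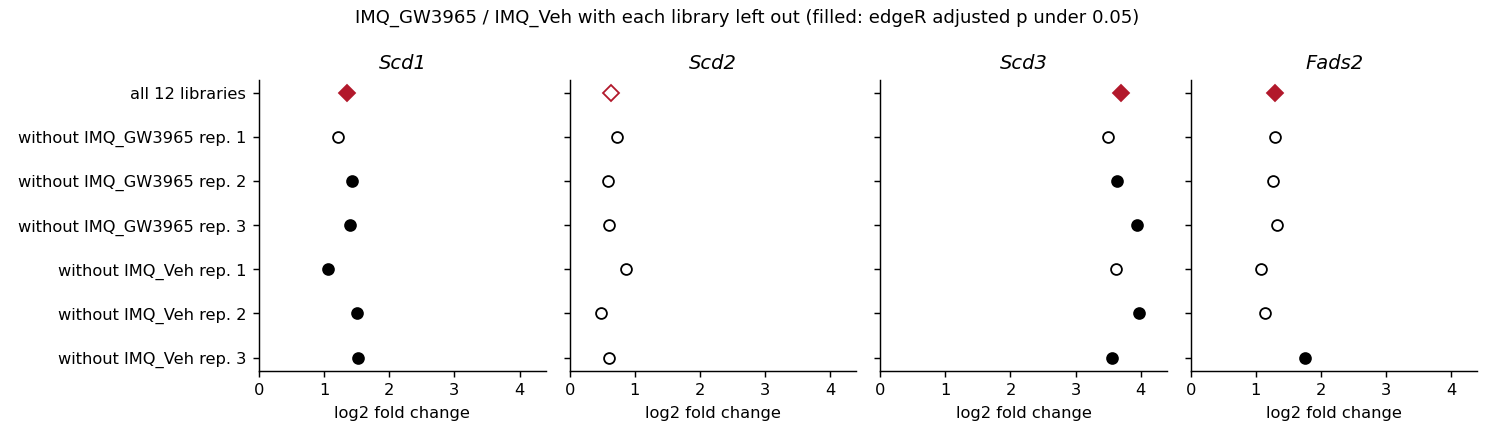
Log2 fold change (horizontal axis) of IMQ_GW3965 over IMQ_Veh for Scd1, Scd2, Scd3 and Fads2 with all 12 libraries (diamond) and with each library of those groups left out (circles, named on the vertical axis), filled where the edgeR adjusted p was under 0.05. All points lie above 0, Scd3 stays at 3.50 or more, and Fads2 is filled in a single fit besides that of all 12 libraries.

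Because reads may be divided among the Scd copies, their expected counts were also summed and tested as a single gene. The sum averaged 5534 ± 676 CPM in IMQ_GW3965 and 2378 ± 517 CPM in IMQ_Veh libraries (SD, n = 3 each), a log2 change of 1.22 with an edgeR adjusted p of 0.00559. Scd1 held 85.51%, 79.05% and 81.24% of the summed Scd TPM in IMQ_GW3965 libraries and 59.63%, 83.64% and 81.3% in IMQ_Veh libraries. The shares of the groups overlapped. Scd3 held 3.165%, 3.641% and 2.082% of the Scd TPM in IMQ_GW3965 libraries and 0.6775%, 0.7469% and 0.3023% in IMQ_Veh libraries, with no overlap. In UTX_Veh libraries, where Scd1 CPM was at or near its highest, Scd3 held 0.0935%, 0.07127% and 0.7144% of the Scd TPM. The effective length that RSEM gave Scd3 ranged from 1819.6 to 3292 bases between libraries, which moves its TPM but not its counts.

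The bases before Scd3, the gene with the largest change, are shown as RefSeq gives them on GRCm38.p6, chr19:44203038-44203268, plus strand, 231 bases up to the first GENCODE exon.
Scd3 upstream: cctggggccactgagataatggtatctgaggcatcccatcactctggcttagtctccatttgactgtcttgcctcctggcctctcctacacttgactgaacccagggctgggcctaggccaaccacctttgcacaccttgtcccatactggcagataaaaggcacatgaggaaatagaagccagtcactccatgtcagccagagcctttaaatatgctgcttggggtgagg
RefSeq windows of 250 bases before to 50 bases after a start site were at hand for 5 of the 8 genes, Scd3, Scd4, Fads2, Fads3 and Fads6. They were searched on both strands for a sterol regulatory element (TCACNCCAC), a CCAAT box (CCAAT), a nuclear receptor hexamer (AGGTCA) and direct repeats of that hexamer spaced by 4 bases, the form LXR binds (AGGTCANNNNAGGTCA), or by 1 base, the form PPARγ binds (AGGTCANAGGTCA). The repeats contain the hexamer. Scd3, Scd4 and Fads2 had no match to any of them, Fads3 had 2 CCAAT boxes and Fads6 had 2 hexamers. Among all 32851 windows, 1.24% held the sterol regulatory element, 37.4% a CCAAT box, 16.3% the hexamer, 0.0152% the repeat spaced by 4 and 0.0396% the repeat spaced by 1. No match means only that these letters are not in these windows. The windows of Fads2 (chr19:10101454-10101753, minus strand) and Scd4 (chr19:44333076-44333375, plus strand) lay mostly inside the genes as GENCODE places them. Most bases before the GENCODE starts of these genes, at 10101746 and 44333092, were therefore not searched.

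With troglitazone no desaturase passed the threshold. Scd1 had 2613, 3081.4 and 2589.4 CPM in IMQ_Troglitazone libraries, against 1016.1, 2140.4 and 2182.7 CPM in IMQ_Veh libraries. All 3 treated libraries were above all 3 IMQ_Veh libraries, but the log2 difference of 0.63 ± 0.24 had an edgeR adjusted p of 0.114. Fads3 had 19.681, 16.877 and 18.017 CPM in IMQ_Troglitazone libraries and 11.154, 12.104 and 15.48 CPM in IMQ_Veh libraries. Here too the ranges were separate, with a log2 difference of 0.50 and an edgeR adjusted p of 0.0671. Fads6 came next (0.49, adjusted p = 0.0936), and Scd4 (1.09), Fads1 (0.41), Fads2 (0.31), Scd3 (0.39) and Scd2 (0.05) had edgeR adjusted p-values from 0.142 to 0.887.

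By edgeR the count was 0 of 8, while 9.34% of all genes tested were called, 4.69% higher and 4.65% lower. At an unadjusted p under 0.05 it was 4 of 8, all higher, against 28.2% of all genes, 13.6% higher. DESeq2 called 1 gene, Fads3, against 16.1% of all genes, and limma-voom called 0, against 1972 of 17130 genes. The groups did not overlap for 3 of the 8 genes, against 25.8% of all genes. The median log2 difference of the 8 genes was 0.45, against -0.02 for all genes. The count differed without IMQ_Veh replicate 3, where Scd1 (log2 0.81, edgeR adjusted p = 0.0371), Scd4 (1.57, 0.0365), Fads1 (0.71, 0.00551), Fads2 (0.76, 0.0169) and Fads3 (0.65, 0.0118) were called higher. In that same fit 25.5% of all genes were called, 14.3% higher, against 9.34% with all libraries. The summed Scd genes averaged 3385 ± 322 CPM in IMQ_Troglitazone and 2378 ± 517 CPM in IMQ_Veh libraries (SD, n = 3 each), with a log2 difference of 0.51 and an edgeR adjusted p of 0.0686. Within L001 and L009 libraries the log2 difference of Scd1 was 0.28 and 1.05, that of Fads3 0.63 and 0.36, and that of Scd2 0.40 and -0.10.

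The comparisons of GW3965 and of troglitazone with IMQ_Veh share the IMQ_Veh libraries, so the drugs were set against each other directly; their doses differ. Scd3 was called, with 93.931, 80.454 and 48.592 CPM under GW3965 and 8.2956, 5.7226 and 8.3722 CPM under troglitazone. The lowest GW3965 library exceeded the highest troglitazone library several times over, and the log2 difference was 3.31 ± 0.65 (SE, edgeR adjusted p = 0.0361). This was 1 of 8 genes called, against 1.86% of all genes, 1.08% higher and 0.782% lower. The call was lost when any of the 6 libraries was left out, with log2 differences of 3.11 to 3.53 and edgeR adjusted p-values of 0.0728 to 0.164. Over all genes those fits gave 0 to 73 calls, against 319 with all libraries.

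The ranges of the drugs were separate for 5 of the 8 genes, all higher under GW3965, while 25.3% of all genes had separate ranges. For Fads2 the values were 21.336, 22.244 and 20.545 CPM under GW3965 and 11.639, 13.142 and 7.5924 CPM under troglitazone. GW3965 libraries were the higher ones throughout, with a log2 difference of 0.99 (95% interval 0.37 to 1.61) and an edgeR adjusted p of 0.0868. Scd1 differed by 0.72 (0.16 to 1.27, adjusted p = 0.158) and Scd2 by 0.59 (0.11 to 1.06, adjusted p = 0.175). The 95% intervals of Scd4 (-0.63 to 1.31), Fads1 (-0.20 to 0.68), Fads3 (-0.28 to 0.44) and Fads6 (-0.50 to 0.29) all included 0. Within L001 and L009 libraries the log2 difference of Scd3 was 3.01 and 3.79.

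With imiquimod alone Scd1 fell and, in CPM, Scd2 rose. Scd1 fell to 1016.1, 2140.4 and 2182.7 CPM in IMQ_Veh libraries, against 5282.5, 5481.2 and 5619.9 CPM in UTX_Veh libraries. The IMQ_Veh libraries were all lower and far more scattered, and the log2 change was -1.62 ± 0.25 (SE, edgeR adjusted p = 0.000173). Scd2 rose to 765.92, 451.76 and 558.75 CPM in IMQ_Veh libraries, against 334.16, 341.07 and 308.3 CPM in UTX_Veh libraries. The IMQ_Veh libraries were all higher, and replicate 1, which had the least Scd1, had the most Scd2. The log2 change of Scd2 was 0.85 ± 0.21 (SE, edgeR adjusted p = 0.00372). On log2(TPM + 1) Scd2 was not called (limma, 0.26, adjusted p = 0.209), on a scale where the median of all genes tested was -0.40, and Scd1 was called lower there (-2.24).

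Among the Fads genes, Fads2 fell by 1.04 on the log2 scale (edgeR adjusted p = 0.0058), Fads1 by 0.75 (0.00501) and Fads3 by 0.52 (0.013). Fads2 had 5.8621, 6.8363 and 13.539 CPM in IMQ_Veh libraries and 17.846, 17.722 and 18.329 CPM in UTX_Veh libraries, which agreed closely. The call of Fads3 was lost without UTX_Veh replicate 3 (log2 -0.40, edgeR adjusted p = 0.0631). Fads6 had a log2 difference of -0.25 (edgeR adjusted p = 0.234) and Scd4 of -0.84 (0.128), which passed without IMQ_Veh replicate 3 at -1.32 (0.0342).

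In this comparison 1 of the 8 genes was called higher and 4 lower, and 61.9% of all genes tested were called, 33% higher and 28.9% lower. Groups were separate for 5 of 8 genes and for 66.8% of all genes, so the number of members called was close to the share among all genes. Scd3 had 5.0321, 7.52 and 4.4604 CPM in IMQ_Veh libraries and 3.695, 2.7169 and 22.986 CPM in UTX_Veh libraries. The high UTX_Veh value came from replicate 3 alone. The log2 difference was -0.77 with all libraries (edgeR adjusted p = 0.311) and 0.83 without that library (0.0564), and within L001 and L009 it was 1.22 and -2.26. The within-lane log2 differences of Scd1 were -1.33 and -1.92, and those of Scd2 were 0.42 and 1.09.

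The ratio of Scd1 to Scd2 does not depend on library scaling. Per length, IMQ_Veh libraries had 1.504, 5.37 and 4.44 Scd1 transcripts for each Scd2 transcript, against 17.9, 18.1 and 20.5 in UTX_Veh libraries. The mean log2 ratio was 1.72 ± 0.99 in IMQ_Veh and 4.23 ± 0.11 in UTX_Veh libraries (SD, n = 3 each), with an exact two-sided permutation p of 0.1, the smallest that 3 against 3 libraries can give. The ratio remained low with either drug, at 7.60, 4.58 and 4.89 in IMQ_GW3965 libraries and 3.80, 5.75 and 6.43 in IMQ_Troglitazone libraries. These values overlapped with each other and with IMQ_Veh, at exact permutation p-values of 0.8 between the drugs and 0.4 for each drug against IMQ_Veh, all n = 3. The summed Scd genes were lower in IMQ_Veh than in UTX_Veh libraries, at 2378 ± 517 and 5800 ± 167 CPM (log2 -1.29, edgeR adjusted p = 5.27e-05).

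**Figure D3:**
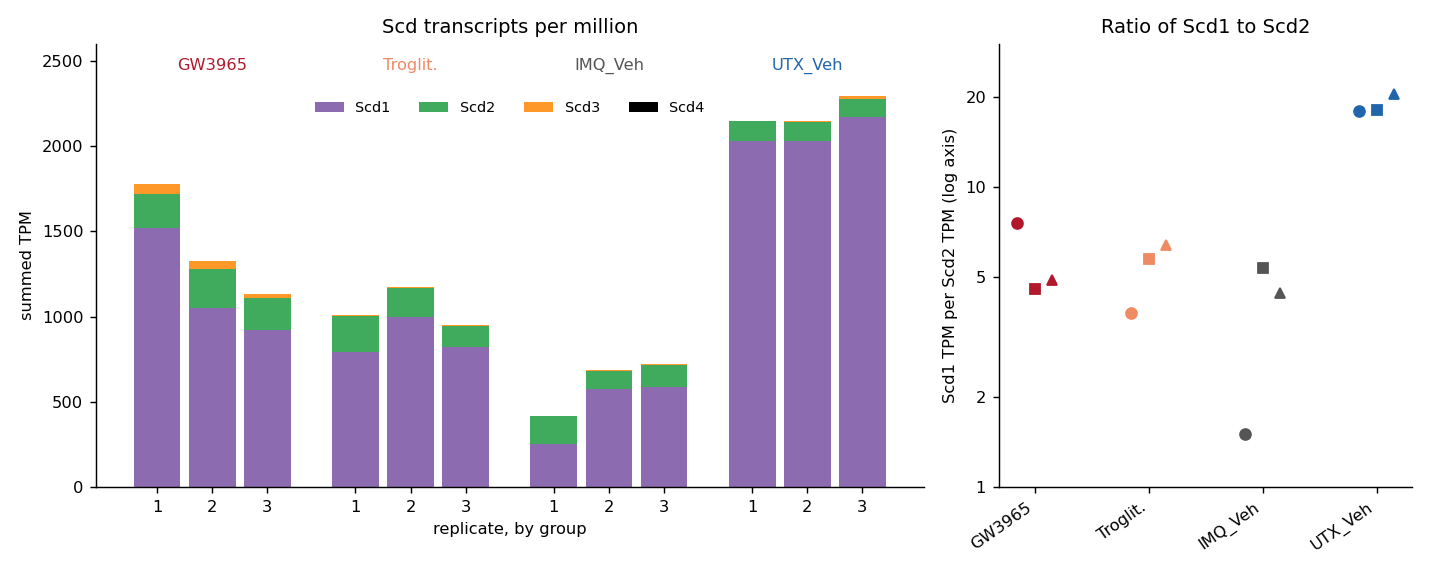
Left, summed TPM of the Scd genes in each library (stacked bars from 0, coloured by gene, grouped as IMQ_GW3965, IMQ_Troglitazone, IMQ_Veh and UTX_Veh); right, TPM of Scd1 per TPM of Scd2 in each library on a log axis, a symbol per replicate. The UTX_Veh libraries have ratios of 17.9 to 20.5, above all imiquimod libraries, and the Scd3 layer is visible mainly under GW3965.

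Set against skin without imiquimod, GW3965-treated skin had more Scd2 and Scd3, while the result for Scd1 depended on the scale. In CPM, Scd1 had 5404.9, 3985.4 and 4212.1 in IMQ_GW3965 libraries and 5282.5, 5481.2 and 5619.9 in UTX_Veh libraries. One range reached into the other through IMQ_GW3965 replicate 1, and the log2 difference of -0.27 (95% interval -0.82 to 0.28) was not called (edgeR adjusted p = 0.368). In TPM, Scd1 had 1521.11, 1048.95 and 921.13 in IMQ_GW3965 libraries and 2033.25, 2032.44 and 2172.11 in UTX_Veh libraries, which did not overlap. On log2(TPM + 1), limma called Scd1 (-0.87, adjusted p = 0.017), Fads1 (-0.66, 0.0117) and Fads3 (-0.63, 0.0296) lower, on a scale where the median of all genes tested was -0.44. In that limma fit 54.1% of all genes were called lower and 8.52% higher. Scd2 was higher, with 805.33, 985.51 and 979.28 CPM in IMQ_GW3965 libraries and 334.16, 341.07 and 308.3 CPM in UTX_Veh libraries. The ranges were far apart, and the log2 difference was 1.49 (edgeR adjusted p = 0.000156). Scd3 was higher by 2.93 (edgeR adjusted p = 0.00253) and by 4.53 without UTX_Veh replicate 3. In edgeR these 2 of 8 genes were called higher and none lower, against 50.2% of all genes, 28.7% higher and 21.5% lower. Ranges were separate for 3 of 8 genes, Scd2, Scd3 and Fads2, and for 66.6% of all genes. The summed Scd genes, at 5534 ± 676 and 5800 ± 167 CPM in IMQ_GW3965 and UTX_Veh libraries, had a log2 difference of -0.07 (edgeR adjusted p = 0.747). Their summed TPM was 1779, 1326.9 and 1133.8 in IMQ_GW3965 libraries and 2149.7, 2146.8 and 2295.7 in UTX_Veh libraries, with no overlap.

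Under troglitazone Scd1 was still lower than in UTX_Veh skin, by a log2 change of -0.98 (edgeR adjusted p = 0.00676), and Scd2 was higher by 0.91 (0.0045). Fads2 was lower by a log2 change of -0.74 (edgeR adjusted p = 0.0419), a call that held in 1 of the 6 fits that left out a library of these groups, the one without IMQ_Troglitazone replicate 2. These 3 of 8 genes, 1 higher and 2 lower, compare with 45.3% of all genes, 26.5% higher and 18.8% lower, and ranges were separate for 4 of 8 genes and 62.5% of all genes. The summed Scd genes were lower in IMQ_Troglitazone libraries, at 3385 ± 322 CPM, than in UTX_Veh libraries, at 5800 ± 167 CPM (log2 -0.78, edgeR adjusted p = 0.00285). Scd3 had a log2 difference of -0.38 with all libraries (edgeR adjusted p = 0.637) and of 1.22 without UTX_Veh replicate 3 (0.0176).

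**Figure D4:**
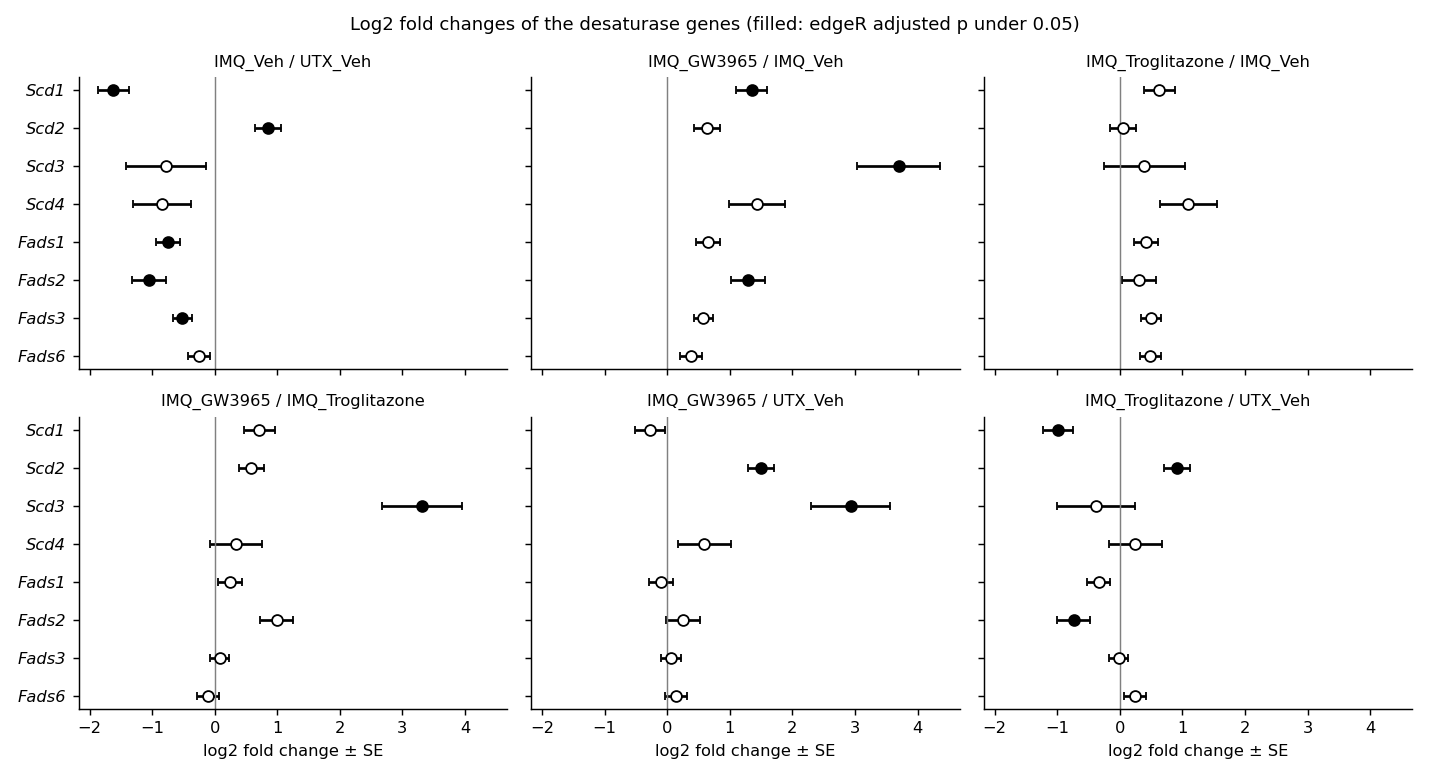
Log2 fold change with its SE (horizontal axis) of each desaturase gene (vertical axis) in 6 comparisons, first group over second, filled where the edgeR adjusted p was under 0.05. Scd3 stands at 3.70 for IMQ_GW3965 over IMQ_Veh and 3.31 for IMQ_GW3965 over IMQ_Troglitazone, and Scd1 and Scd2 lie on opposite sides of 0 for IMQ_Veh over UTX_Veh.

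The regulators of desaturase transcription were measured next to their targets. With GW3965, 4 of 15 rose and 1 fell, beside 6.59% of all genes tested called, 3.71% higher and 2.88% lower. Srebf1 rose to 307.75 ± 41.4 CPM in IMQ_GW3965 libraries, against 130.96 ± 25.4 CPM in IMQ_Veh libraries (SD, n = 3 each; log2 1.23, edgeR adjusted p = 0.00276). Pparg, the receptor that troglitazone binds, rose by 0.89 (edgeR adjusted p = 0.0187), and Insig1, which holds SREBP back in the endoplasmic reticulum and is itself an SREBP target, by 0.64 (0.0141). Ppard, a nuclear receptor of the same family as Pparg, fell by a log2 change of -0.67 (edgeR adjusted p = 0.0244). The LXR genes Nr1h3 and Nr1h2 had log2 differences of 0.75 and 0.21 (edgeR adjusted p = 0.15 and 0.107), the glucose-sensing factor Mlxipl of 0.72 (0.248), and Srebf2, the regulator of sterol synthesis, of -0.16 (0.498). Without IMQ_Veh replicate 3, Nr1h3 (1.20, edgeR adjusted p = 0.00911) and Mlxipl (1.28, 0.0181) were called higher.

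With troglitazone, Srebf1 rose by 0.57 on the log2 scale (edgeR adjusted p = 0.0347) and Ppard fell by 0.52 (0.0435), while 9.34% of all genes were called. The other 13 regulators were not called, among them Pparg at 0.56 (edgeR adjusted p = 0.0592), Insig1 at 0.26 (0.155), Nr1h3 at 0.63 (0.206), Nr1h2 at 0.22 (0.0857), Mlxipl at 0.56 (0.344) and Srebf2 at 0.02 (0.937). Without IMQ_Veh replicate 3, Pparg (0.69, edgeR adjusted p = 0.0173), Nr1h3 (1.08, 0.0129) and Mlxipl (1.12, 0.0269) were called higher. Pparg was also called with DESeq2 (adjusted p = 0.0215) and on log2(TPM + 1) with limma (0.0289). Between the drugs 1 of 15 was called: Srebf1 averaged 307.75 ± 41.4 CPM under GW3965 and 194.3 ± 23.5 CPM under troglitazone (log2 0.66, edgeR adjusted p = 0.0436). That call was lost without any 1 of the 6 libraries, where all genes gave 0 to 73 calls. With all libraries 1.86% of all genes were called between the drugs. With imiquimod alone 4 of 15 rose and 7 fell. As 61.9% of all genes were called there, 33% higher and 28.9% lower, this count by itself does not set the regulators apart. Srebf1 fell by 0.94 (edgeR adjusted p = 0.000181), Pparg by 1.09 (0.000205), Mlxipl by 1.66 (0.0023) and Nr1h2 by 0.35 (0.0018), while Srebf2 rose by 0.65 (0.00191) and Ppard by 1.75 (3.44e-06). Ppara, the receptor of this family that drives fatty acid oxidation, fell by 1.75 (edgeR adjusted p = 0.000229). Insig1 differed by 0.15 (edgeR adjusted p = 0.266) and Nr1h3 by -0.57 (0.128), and neither was called; without IMQ_Veh replicate 3 Nr1h3 was called lower (-1.01, 0.00507).

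Fatty acid synthesis supplies the chains that Scd desaturates. The shares of all genes called were 6.59% with GW3965, 9.34% with troglitazone, 1.86% between the drugs and 61.9% with imiquimod alone. A list of 11 genes stood for that pathway, and whether each of them supplies such chains was not tested. With GW3965, 5 of the 11 rose and none fell. Those 5 were led by the acetyl-CoA carboxylase Acacb (log2 1.13, edgeR adjusted p = 0.0246), Pnpla3 (0.97, 0.0371) and the fatty acid synthase Fasn (0.77, 0.0367). With troglitazone 3 of 11 rose: Fasn by 0.97 (edgeR adjusted p = 0.0151), Pnpla3 by 0.92 (0.0377) and the carboxylase Acaca by 0.40 (0.042). Between the drugs edgeR called none of the 11, with 0 at an unadjusted p under 0.05, and Fasn had a log2 difference of -0.19 (edgeR adjusted p = 0.682). With imiquimod alone 4 of 11 fell, including Acacb by 2.05 (edgeR adjusted p = 3.67e-05), Pnpla3 by 1.53 (0.000201) and Fasn by 0.61 (0.0148), and the mitochondrial transacylase Mcat rose by 0.67 (0.000914).

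Elongases act before and after the desaturases. Their counts stand beside 6.59% of all genes called with GW3965, 9.34% with troglitazone, 1.86% between the drugs and 61.9% with imiquimod alone. Of the 12 tested, 5 rose with GW3965, led by Elovl6, which makes the stearoyl-CoA that Scd uses (log2 1.04, edgeR adjusted p = 0.00665), and Elovl5, which lengthens polyunsaturated chains between the Fads2 and Fads1 steps (0.74, 0.006). Hacd2, a dehydratase of the elongation cycle, rose by 0.53 (edgeR adjusted p = 0.036). With troglitazone 1 of 12 was called, Elovl6 (0.74, edgeR adjusted p = 0.0179), and between the drugs 1 was called, Elovl5, higher under GW3965 by 0.84 (0.0234). With imiquimod alone Elovl6 fell by 1.93 (edgeR adjusted p = 2.96e-06) and Elovl5 by 1.24 (3.15e-06), while Elovl7 rose by 1.19 (4.42e-06); in all 4 rose and 3 fell. Of the 6 genes that supply electrons to the desaturases, edgeR called none with GW3965 (2 at an unadjusted p under 0.05), the reductase Cyb5r3 rose with troglitazone (0.40, adjusted p = 0.0479), and Cyb5r3 (-0.66, 0.000377) and Cyb5r2 (-1.80, 0.0265) fell with imiquimod alone.

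Of the 18 genes that use monounsaturated chains, 7 rose and 1 fell with GW3965, 4 rose with troglitazone, and 4 rose and 8 fell with imiquimod alone. Among all genes tested, 3.71% rose and 2.88% fell with GW3965, and 4.69% rose with troglitazone. With imiquimod alone, 33% of all genes rose and 28.9% fell. The wax synthase Awat2 rose with GW3965 by 1.36 (edgeR adjusted p = 0.036) and with troglitazone by 1.46 (0.0241). Soat1, which esterifies cholesterol with such chains, rose with GW3965 by 1.15 (edgeR adjusted p = 0.00854) and with troglitazone by 0.80 (0.0237), and the reductase Far2, which makes fatty alcohols for wax esters, rose with troglitazone by 1.07 (0.0294). Soat2 fell with GW3965 by 1.81 (edgeR adjusted p = 0.022) and averaged 0.230 CPM in IMQ_GW3965 and 0.825 CPM in IMQ_Veh libraries. Between the drugs the acyl-CoA synthetases Acsl3 (0.52, edgeR adjusted p = 0.0361) and Acsl5 (0.38, 0.0412) were higher under GW3965. With imiquimod alone Acsl6 (-2.32, edgeR adjusted p = 0.000226), Awat2 (-1.60, 0.00138) and the acyltransferase Mogat1 (-1.58, 0.0019) fell most.

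The ceramide desaturases Degs1 and Degs2, which act on the sphingoid base and not on the fatty acid, moved otherwise than Scd1. With imiquimod Degs1 rose to 487.15 ± 106 CPM in IMQ_Veh libraries, against 120.84 ± 4.13 CPM in UTX_Veh libraries (SD, n = 3 each; log2 2.01, edgeR adjusted p = 1.72e-06). Degs2, which also hydroxylates ceramides of the epidermis, rose to 62.1 ± 17.6 CPM, against 6.48 ± 0.409 CPM in UTX_Veh libraries (log2 3.26, edgeR adjusted p = 7.5e-07). Neither was called with GW3965 (log2 -0.31 and 0.01) or with troglitazone (-0.37 and -0.10), at edgeR adjusted p-values from 0.121 to 0.983.

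The calls of these surrounding genes depended on single libraries under the drugs. Of the 13 named ones called with GW3965 against IMQ_Veh, Srebf1, Elovl5, Elovl6 and Soat1 were called in all 6 fits without 1 library of these groups. The others lost their call in at least 1 fit, with 9 of 13 lost without IMQ_GW3965 replicate 1, 8 without IMQ_Veh replicate 1, 6 each without IMQ_GW3965 replicate 2 or 3 and 3 without IMQ_Veh replicate 2. Over all genes the calls in these fits, in that order, were 105, 154, 375, 412 and 733, against 1129 with all libraries. All 10 named genes called with troglitazone lost their call without IMQ_Veh replicate 1, where calls over all genes fell from 1600 to 162. All 4 named genes called between the drugs lost it without IMQ_GW3965 replicate 1, where calls over all genes fell from 319 to 0. Of the 21 named ones called with imiquimod alone, Cyb5r2 was the 1 whose call was lost in such fits.

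**Figure D5:**
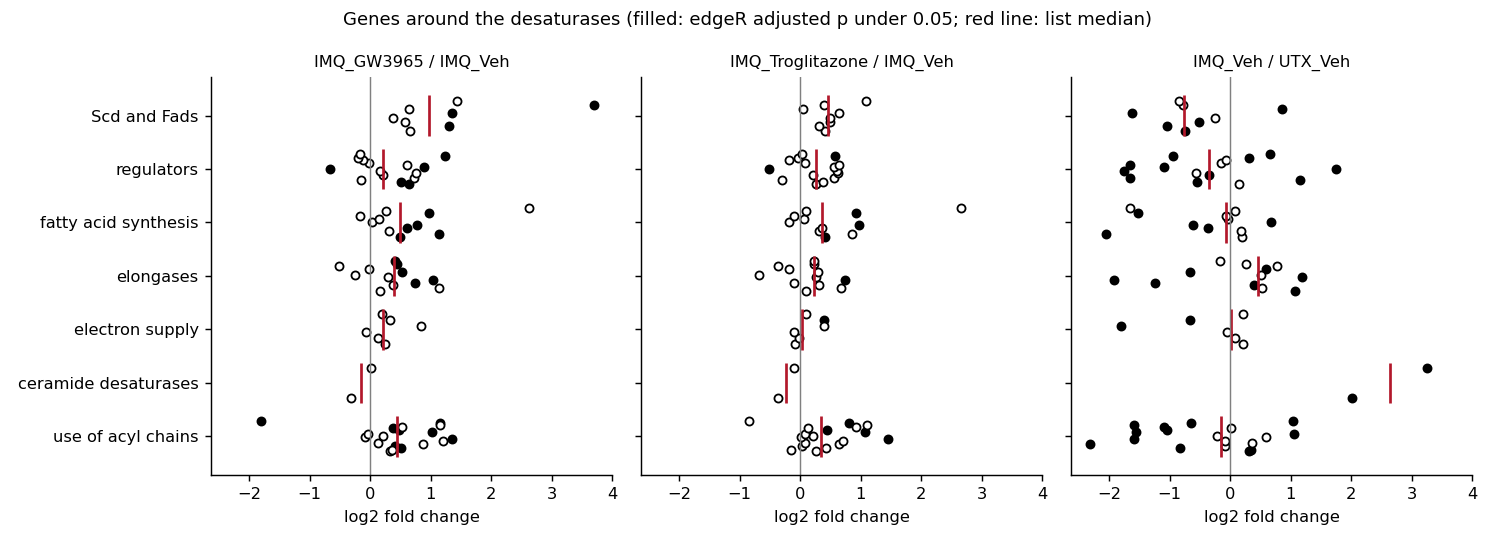
Log2 fold change (horizontal axis) of the desaturases and of 6 lists of genes around them (rows; a point per gene, a red line at the list median), for IMQ_GW3965 over IMQ_Veh, IMQ_Troglitazone over IMQ_Veh and IMQ_Veh over UTX_Veh, filled where the edgeR adjusted p was under 0.05. The desaturase medians are 0.97, 0.45 and -0.76, and both ceramide desaturases lie at 2.01 or more with imiquimod alone.

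Markers of sebaceous gland and of other cell types of the ear differed between the groups too. Their counts called are read beside shares of all genes of 6.59% with GW3965, 9.34% with troglitazone and 61.9% with imiquimod alone. The 10 sebaceous gland markers, 4 of which also stand in the lists above, summed to 2183.2 to 2526.2 CPM in IMQ_GW3965, 1823 to 2315.9 CPM in IMQ_Troglitazone, 964.59 to 1963.8 CPM in IMQ_Veh and 1395.9 to 1520.9 CPM in UTX_Veh libraries, and none was at 0 throughout a group. With GW3965 4 of 10 were called higher, with troglitazone 2, and with imiquimod alone 1 higher and 5 lower. At an unadjusted edgeR p under 0.05, 9 were higher with GW3965 and 6 with troglitazone, against 13.2% and 13.6% of all genes. The 11 adipocyte markers summed to 767.95 to 1065.4 CPM in IMQ_GW3965, 717.65 to 1174.5 CPM in IMQ_Troglitazone, 227.25 to 814.83 CPM in IMQ_Veh and 860.37 to 1503.2 CPM in UTX_Veh libraries; edgeR called none with GW3965 (4 at an unadjusted p under 0.05) and 1 higher with troglitazone. The 10 skeletal muscle markers summed to 6533 to 9463.3, 4856.7 to 7523.9, 1518.8 to 5873.9 and 12032 to 13954 CPM in the same order of groups, and 3 of 10 rose with GW3965 (10 at an unadjusted edgeR p under 0.05). With imiquimod alone 10 of 10 muscle, 8 of 9 cartilage and 4 of 11 adipocyte markers fell, and 8 of 10 keratinocyte markers rose. The 9 neutrophil markers summed to 273.7 to 2021.8 CPM in IMQ_GW3965, 384.67 to 1965.7 CPM in IMQ_Troglitazone, 5752.6 to 10095 CPM in IMQ_Veh and 19.478 to 36.085 CPM in UTX_Veh libraries. Of the 8 tested, 3 fell with each drug and 7 rose with imiquimod alone, and Fpr1 was at 0 in all 3 UTX_Veh libraries. Their part in the desaturase results was not tested. In bulk tissue, fewer cells of a type and less RNA per cell cannot be told apart.

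Genes whose profile over the 12 libraries lay nearest to each desaturase were found by the root mean square difference of log2 CPM, each gene centred on its own mean, among 13715 named genes. For Scd1 the nearest were the ethanolamine kinase Etnk2 (0.176), Plekhb1 (0.197) and the carnitine acetyltransferase Crat (0.213), against a spread of Scd1 itself of 0.749 (SD, log2 scale). For Scd2 they were the pseudogene Bnip3l-ps (0.223), the copper chaperone Atox1 (0.232) and Uqcc2 (0.252). For Fads1 they were the lipid phosphatase Plpp1 (0.109), Cnp (0.119) and Ccdc91 (0.123), and for Fads2 Dusp13 (0.272), Bin1 (0.286) and the myosin light chain Myl6b (0.296). Fads3 was nearest to the growth factor Fgf1 (0.106), Slc29a1 (0.13) and Pde9a (0.136), and Fads6 to Cyfip2 (0.143), Fkbp1b (0.152) and Creg1 (0.155). For Scd4, counted at 10 to 75 reads per library, they were Serpine2 (0.29), the LXR gene Nr1h3 (0.306) and Ms4a2 (0.316). No gene lay close to Scd3: the nearest, Scgb2b27 (1.22), Apod (1.24) and Tac4 (1.28), compare with a spread of Scd3 itself of 1.76.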

How the data were processed

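Per the labels' protocols, RNA came from a mirVana kit and libraries from a TruSeq stranded mRNA kit. Per the submitters' processing notes, the tools were RSEM 1.3.3, STAR 2.7.3a, Trim Galore and FastQC, with the build GRCm38 (mm10); annotation release and strand setting: not given in the sources used here. Deposited values are RSEM expected counts, estimated reads per gene that are not depth-scaled, and TPM, scaled by effective length and library. TPM was used to compare genes within libraries, for the shares and ratios of the Scd genes, and in an alternative fit. Between groups it was set beside CPM for Scd1 and for the summed Scd genes.

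Symbols and positions came from GENCODE M21, which matched 52083 of 55416 identifiers. Expected counts were rounded and fitted in R 4.3.3 with edgeR 4.0.16 (filterByExpr, TMM, glmQLFit, glmQLFTest) in a single model of 12 libraries with 8 residual degrees of freedom, a common dispersion of 0.0306 and Benjamini-Hochberg adjustment over 17130 genes. SE is the log2 change divided by the root of F, and 95% intervals use 8 degrees of freedom. The edgeR test adds prior degrees of freedom to these, so the intervals are wider than the test implies. The fit was run on counts simulated with the same dispersion for every gene. That run checked the code and does not bear on genes as variable as Scd3. Centred profiles used log2 CPM with a prior count of 2. Replicates of a group differed beyond sampling noise (lowest chi-square per degree of freedom 7.79). All 142 list symbols matched. The 8 members were named throughout, with 8 fixed regulators and enzymes, and from each list up to 3 called genes with the largest change. The members, lists and naming rule were chosen with earlier results of these data known. Alternatives were limma-voom (limma 3.58.1), DESeq2 1.42.0, upper-quartile or RLE scaling, other filters, a fit restricted to each pair of groups, a replicate block, a lane term, fits without single libraries, without replicate 3 of IMQ_Veh and IMQ_GW3965, without ENSMUSG00000119584 and Lars2, and limma on log2(TPM + 1). Figures were drawn with matplotlib 3.10.9.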

Additional observations from a re-analysis of the deposited data

Results flagged for a closer look

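The response of Scd3 differed between the drugs in a direct test: it was higher under GW3965 than under troglitazone by 3.31 on the log2 scale (74.3 ± 23.3 CPM in IMQ_GW3965 and 7.46 ± 1.51 CPM in IMQ_Troglitazone libraries, SD, n = 3 each; edgeR adjusted p = 0.0361), in 3 of 3 libraries against 3 of 3. The call was lost without any single library of these groups, in fits that gave 0 to 73 calls over all genes, against 319 with all libraries.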

How the results depend on the processing

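The count of desaturases called against IMQ_Veh depended on the model. With GW3965 it was 7 with DESeq2, 6 with no filter on low counts, 5 with limma-voom, 1 with only the 2 groups compared and 0 to 6 without a single library. The shares of all genes called in the same order of fits were 13.8%, 4.89%, 8.8%, 0.634% and 0.599% to 20.8%. With troglitazone the count of desaturases was 1 with DESeq2, 4 with limma on log2(TPM + 1) and 0 to 5 without a single library. Among all genes the shares were 16.1%, 13.5% and 0.925% to 25.5%. Between the drugs the count of desaturases was 2 with DESeq2 or limma-voom and 0 to 0 without a single library. Among all genes the shares were 7.76% with DESeq2, 2.25% with limma-voom and 0% to 0.416% without a single library. Without replicate 3 of both IMQ_Veh and IMQ_GW3965 the counts of desaturases were 6, 5 and 0, against 17.4%, 23.8% and 0% of all genes. On TPM, 5 desaturases were called for GW3965 against UTX_Veh, 2 higher (Scd2 and Scd3) and 3 lower (Scd1, Fads1 and Fads3). Of all genes tested, 62.6% were called in that comparison on TPM, 8.52% higher and 54.1% lower, so this count was close to the share among all genes. The call of Scd2 with imiquimod alone was lost on TPM (0.26).

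Over all genes, GW3965 against IMQ_Veh gave 1129 calls, 549 with a lane term, 2222 with DESeq2, 102 with only the 2 groups, 3041 without both replicates 3, 529 on TPM and 105 to 3645 without a single library. Troglitazone against IMQ_Veh gave 1600, then 1009, 2590, 0, 4166 and, without a single library, 162 to 4460. GW3965 against troglitazone gave 319, then 942 with DESeq2, 140 with no filter, 9 with only the 2 groups, 0 without both replicates 3, 1452 on TPM and 0 to 73 without a single library.

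Whether libraries of the same replicate number belong together is not stated in the labels. The correlations of same-numbered libraries were 0.0656, 0.225 and 0.312 for IMQ_Veh with UTX_Veh and 0.0722, 0.219 and 0.096 for IMQ_Troglitazone with IMQ_Veh. For IMQ_GW3965 with IMQ_Veh they were -0.161, 0.0401 and -0.000118. In that order, 3, 2 and 0 libraries matched best with their own number, and 0 or 1 did in the remaining pairs of groups. Pparg passed with troglitazone against IMQ_Veh under the replicate block (0.57, edgeR adjusted p = 0.0473). With the replicate block, 5 desaturases were called with GW3965 against IMQ_Veh, beside 8.32% of all genes. Between the drugs 0 desaturases were called under that block, where all genes gave 131 calls. Block and lane term together gave 0 desaturases and 26 genes between the drugs, and 991 genes for troglitazone against IMQ_Veh.

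The summed Scd genes passed between the drugs with upper-quartile scaling (0.73) and for troglitazone against IMQ_Veh without IMQ_Veh replicate 3 (0.34 to 0.63 without a single library). Some small log2 differences changed sign. Against UTX_Veh, Fads3 with GW3965 was -0.042 with upper-quartile scaling and -0.058 to 0.18 without a single library (negative without UTX_Veh replicate 2 at -0.022 or IMQ_GW3965 replicate 1), and with troglitazone -0.10 to 0.10 (positive without UTX_Veh replicate 3, or IMQ_Troglitazone replicate 2 at 0.035). Scd3 with troglitazone was 0.29 with limma-voom and -0.83 to 1.22 without a single library, with imiquimod alone it was -1.22 to 0.83, both positive without UTX_Veh replicate 3, and Scd4 with troglitazone was -0.13 (without IMQ_Troglitazone replicate 3) to 0.50. For troglitazone against IMQ_Veh, Scd2 was -0.09 without IMQ_Veh replicate 2 and -0.15 without IMQ_Troglitazone replicate 1, and Srebf2 was -0.12 to 0.17 without a single library, negative without IMQ_Veh replicate 3, and -0.06 without IMQ_Troglitazone replicate 2 and -0.11 without both replicates 3. Between the drugs, Nr1h2 was 0.0062 with upper-quartile scaling, 0.036 without IMQ_GW3965 replicate 3 or both replicates 3 and 0.033 without IMQ_Troglitazone replicate 1, with a lowest value of -0.044. Without a single library Scd4 was -0.13 to 0.72, Fads3 -0.043 to 0.15 and Mlxipl -0.22 to 0.35, all lowest without IMQ_GW3965 replicate 1; Nr1h3 was -0.020 (without IMQ_Troglitazone replicate 2) to 0.25 and Fads6 -0.18 to 0.0052 (without IMQ_Troglitazone replicate 3).

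TPM moved the median of all genes by itself, to -0.40 for imiquimod alone, -0.44 and -0.20 for GW3965 and troglitazone against UTX_Veh, 0.19 for troglitazone against IMQ_Veh and -0.23 for GW3965 against troglitazone, and the share of calls that were higher to 19.8%, 13.6%, 28.1%, 90.4% and 0.758% in that order, against 53.3%, 57.2%, 58.5%, 50.2% and 58% in the edgeR fit; for GW3965 against IMQ_Veh it was 44% against 56.2%. Upper-quartile scaling moved the median to -0.11 in comparisons with UTX_Veh and that share to 44.7% for troglitazone. On TPM the sign changed for Insig1 with imiquimod alone (-0.38), between the drugs for Fads1 (-0.12), Fads3 (-0.60), Nr1h3 (-0.15) and Mlxipl (-0.11), for GW3965 against UTX_Veh in Fads2 (-0.31), Fads3 (-0.63) and Fads6 (-0.36), and for troglitazone against UTX_Veh in Scd3 (0.080), Scd4 (-0.031) and Fads6 (-0.016). The cause of these changes was not tested. Scd4 had 10 to 75 reads per library, and the part of depth in its results was not tested.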
